A study of Mus musculus with 7 samples.

Results

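Malat1 and Neat1 are long noncoding RNAs that stay in the nucleus, and they were followed here through 7 RNA-seq libraries of mouse embryonic fibroblasts (MEFs). They were taken by gene symbol, which gave 2 of the 49382 genes in the deposited table. The fibroblasts were wild type in every library, were grown from minced embryos of E13.5 to E14.4 without the head and fetal liver, and were used at passages 3 to 7. One library came from control cells with no time label. One library each came from cells given 100 mM NaCl for 3 hours (osmotic stress), 10 μM NaAsO2 for 3 hours (oxidative stress), 1 μM thapsigargin for 10 hours (ER stress), 0.1% oxygen for 10 hours (hypoxia), no glucose for 10 hours (glucose depletion) or no glutamine for 10 hours (glutamine depletion). The study used these conditions to ask how fibroblast gene expression responds to stress in the microenvironment. With 1 library per condition, no difference could be set against replicate error, and no p-value is given for any value below.

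Neat1 is the RNA scaffold of paraspeckles, nuclear bodies that form around its long transcript and hold RNA-binding proteins such as NONO and SFPQ. Malat1 collects in nuclear speckles, bodies rich in splicing factors, and is among the abundant noncoding RNAs of many cell types. Both genes are known to respond to cell stress, and the long Neat1 transcript and Malat1 share an unusual 3′ end. RNase P cuts each RNA just before a tRNA-like sequence, which leaves a genomically encoded A-rich tract in place of a poly(A) tail. That tract folds into a triple helix with U-rich stretches upstream. The libraries were made with a protocol for polyadenylated mRNA, so capture of such RNAs rests on encoded A-rich sequence or on transcripts with a tail.

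The genes lie side by side on the minus strand of chromosome 19 in GRCm38. Malat1 (ENSMUSG00000092341) spans chr19:5795690-5802672, or 6983 bases, and Neat1 (ENSMUSG00000092274) spans chr19:5824708-5845478, or 20771 bases, with 22035 bases between them. Both are annotated as long intergenic noncoding RNAs, and the main transcript of each, Malat1-201 and Neat1-201, is a single exon that covers the whole gene. The short transcript Neat1-202 (3004 bases, chr19:5842307-5845476) begins at the same end of the gene and stops early. The deposited value sums all transcripts of a gene per length, so the long and short forms of Neat1 cannot be told apart, and a read on the long form adds less to the value than a read on the short form.

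The shared 3′ end is given next, since it bears on how these RNAs enter a library of polyadenylated RNA. The first 2 lines give the 100 bases of each RNA that end at the A-rich tract, 5′ to 3′ on the minus strand of GRCm38, from chr19:5824708-5824807 for Neat1 and chr19:5795982-5796081 for Malat1. Capitals mark the runs of at least 10 bases that are identical in both, and these are 13, 16 and 11 bases long.
Neat1, end of the long transcript: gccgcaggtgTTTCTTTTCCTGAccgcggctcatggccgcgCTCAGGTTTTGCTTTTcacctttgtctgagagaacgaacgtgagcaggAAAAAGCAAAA
Malat1, up to the tract: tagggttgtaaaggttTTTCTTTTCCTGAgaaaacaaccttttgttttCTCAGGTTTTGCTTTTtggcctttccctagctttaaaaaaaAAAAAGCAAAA
The tRNA-like sequence that follows each tract is shown next, from chr19:5824652-5824707 after Neat1 (annotated as the separate gene Gm27702) and from chr19:5795922-5795981 after the Malat1 tract. Capitals mark shared runs of at least 8 bases, which are 8 and 9 bases long.
Gm27702, after Neat1: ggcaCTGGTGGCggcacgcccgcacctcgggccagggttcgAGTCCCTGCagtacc
Malat1, after the tract: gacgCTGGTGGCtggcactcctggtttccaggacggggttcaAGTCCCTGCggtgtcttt
Gm27702 begins at the base after Neat1-201 ends, so the annotated long transcript stops where the tRNA-like sequence starts. The annotation of Malat1-201 runs on for 292 bases past its tract.

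The ends that carry a poly(A) signal are shown for contrast, with the letters AATAAA in capitals. They are the last 60 bases of Neat1-202 (chr19:5842307-5842366) and of Malat1-201 (chr19:5795690-5795749), both on the minus strand.
Neat1, end of the short transcript: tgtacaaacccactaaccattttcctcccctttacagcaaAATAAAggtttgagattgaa
Malat1, annotated end: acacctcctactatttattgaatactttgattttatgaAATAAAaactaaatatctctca
The signal lay 20 bases before the end of Neat1-202 and 22 bases before the annotated end of Malat1-201. In the long transcript Neat1-201 the last such signal lay 2077 bases before the end.

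The unit is TPM, an abundance per transcript length that adds up to 1000000 over the genes of a library. It keeps no read count, so the depth is unknown. Genes above 0 TPM numbered 19819 to 21154 by library, and mitochondrially encoded genes took 5.09% to 9.25% of the total. All 9 fibroblast markers (collagens, Vim, Pdgfra and others) passed the expression filter, with a summed level of 8760 to 16272 TPM. Summed markers of other cells reached 13.7 TPM for leukocytes, 7.31 for endothelium, 0.991 for epithelium, 1.01 for erythroid cells, 36.2 for skeletal muscle and 55.8 for neural cells. Genes that mark each treatment moved by more than 2-fold in their own library in 6 of 6 cases for hypoxia, 4 of 4 for ER stress, 4 of 4 for oxidative stress, 2 of 3 for osmotic stress, 2 of 2 for glucose depletion and 2 of 2 for glutamine depletion. By condition, 1.83% to 11.0% of the genes that passed the filter moved that far in a given direction. The 2 markers of glutamine depletion also rose past 2-fold in ER stress and in oxidative stress, so they are not particular to their own library. Txnip, a marker of glucose depletion, fell more in osmotic stress (log2 change -3.12) than without glucose (-2.07). Changes below are differences in log2(TPM + 1) from the control library, and a change counts when it is past 2-fold on that scale. The filter asked for a mean of 2 TPM or more over the 7 libraries, and 12909 genes passed it, Malat1 and Neat1 among them.

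Neat1 had by far its lowest level in osmotic stress, while Malat1 there was near its control level. The level of Neat1 was 133 TPM in the control, 207 in oxidative stress, 107 without glutamine, 70.4 in hypoxia, 66.6 without glucose, 56.2 in ER stress and 2.01 in osmotic stress. The level of Malat1 was 99.1 TPM in the control, 201 in oxidative stress, 116 without glutamine, 111 in osmotic stress, 84.7 in ER stress, 78.5 without glucose and 77.2 in hypoxia. The 7 Malat1 levels lay within a 2.60-fold range. Those of Neat1 covered 103-fold, or 3.68-fold without the osmotic library. In the order of levels, the single neighboring pair that stood more than 2-fold apart was Neat1 in ER stress and in osmotic stress, with a gap of 4.25 on the log2 scale. Each other step in either order was at most 0.79, and none of these can be separated from culture-to-culture variation with 1 library each. In bulk RNA, fewer cells that carry an RNA and less of it per cell cannot be told apart.

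**Figure D1:**
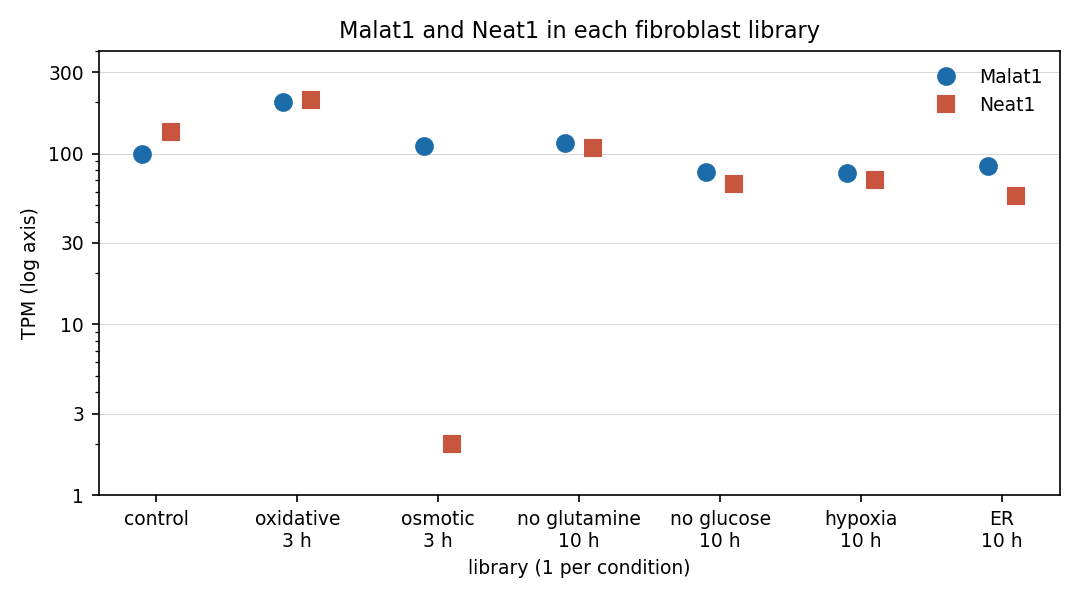
TPM of Malat1 (circles) and Neat1 (squares) in the 7 libraries on a log axis, 1 point per gene and library, with no error bars because no condition was replicated. Neat1 sits at 2.01 TPM in osmotic stress, while every other point lies between 56.2 and 207 TPM.

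Neat1 fell by 5.48 on the log2 scale in osmotic stress, to 1.51% of its control TPM. In that library 8.76% of the genes that passed the filter fell by more than 2-fold and 3.08% rose, and the median change over all of them was -0.12. Among those 12909 genes, 8 had a lower change than Neat1, and all 8 were listed at 0 TPM in osmotic stress. They were 3 microRNA genes, 1 small nucleolar RNA, 1 mitochondrial tRNA, 2 protein-coding genes and 1 gene without a match in the annotation. With 1 TPM added, a gene with a low control level cannot fall that far. Among 3262 genes with at least 50 TPM in the control, 6 had a lower change than Neat1. Neat1 stood at position 1179 of all genes by TPM in the control library and at position 12286 in osmotic stress. Set against each other library directly, Neat1 in osmotic stress was lower by 4.25 (ER stress) to 6.11 (oxidative stress) on the log2 scale, so the low value does not hang on the control library.

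Neat1 also fell in ER stress, from 133 to 56.2 TPM, a log2 change of -1.23. Against the median of the 7 libraries in place of the control the change was -0.32, so this call rests on the control library. There 11.0% of genes fell by more than 2-fold and 8.60% rose, and Neat1 stood at percentile 7.55 of all changes. The summed fibroblast markers were also lowest in this library, at 8760 TPM against 14131 in the control, and their part in the result was not tested. Glucose depletion gave a log2 change of -0.99 for Neat1, just inside the 2-fold limit, in a library where 2.41% of genes fell by more than 2-fold and 1.83% rose. At percentile 2.46 of all changes, Neat1 stood lower among the genes in glucose depletion than it did in ER stress, where more genes moved. In hypoxia the log2 change of Neat1 was -0.91 (percentile 3.19), with 2.64% of genes falling and 3.57% rising past 2-fold. In glutamine depletion it was -0.31 (percentile 26.7), with 3.21% falling and 3.21% rising. Oxidative stress had the highest Neat1 level, but its log2 change of 0.63 (percentile 93.3) did not pass 2-fold.

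Malat1 rose in oxidative stress, from 99.1 to 201 TPM. Its log2 change of 1.01, or 2.01-fold, lay just outside the limit, at percentile 96.1, and 3.94% of genes rose and 4.85% fell past 2-fold in that library. This library also had the highest mitochondrial share, 9.25% against 6.37% in the control. With mitochondrially encoded genes removed, the change of Malat1 was 1.06, and with a pseudocount of 5 TPM it was 0.98, which is inside 2-fold. In the other 5 conditions Malat1 stayed inside 2-fold. Its log2 changes were 0.22 in glutamine depletion, 0.16 in osmotic stress, -0.22 in ER stress, -0.33 in glucose depletion and -0.36 in hypoxia. In osmotic stress and glutamine depletion Malat1 was above the control and Neat1 below it. All 6 changes share the control library.

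**Figure D2:**
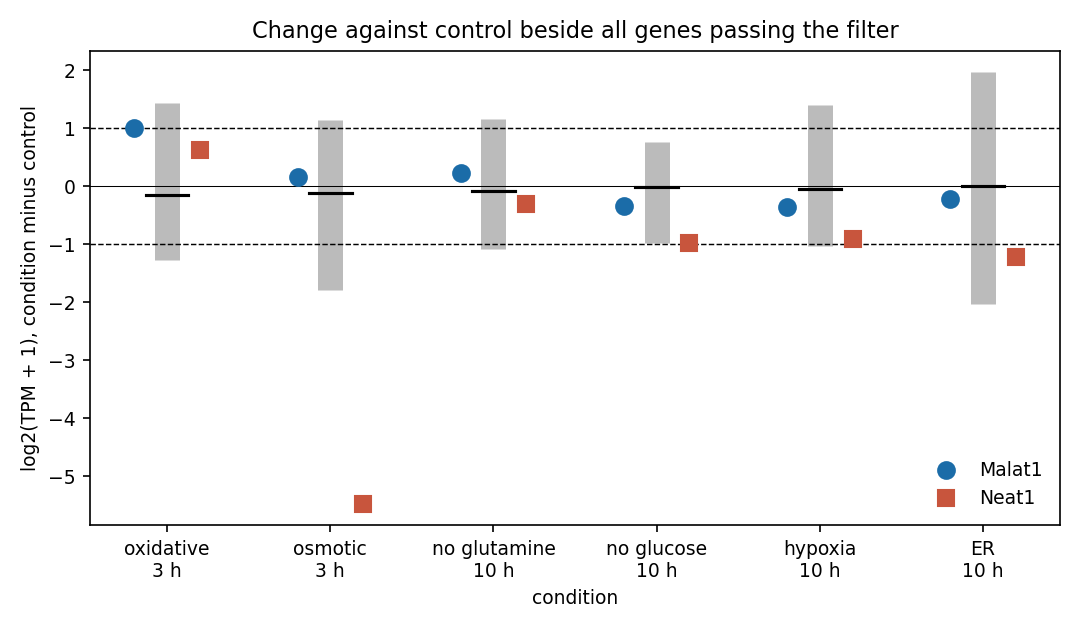
Difference in log2(TPM + 1) from the control library for Malat1 (circles) and Neat1 (squares) in each condition. Gray bars hold the central 95% of the 12909 genes, black ticks are their medians and dashed lines mark 2-fold. Neat1 lies below the bar in osmotic stress, at -5.48, and just under its lower end of -0.97 in glucose depletion, at -0.99.

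A ratio within 1 library does not use the control. Neat1 stood at 1.34 times the TPM of Malat1 in the control and 1.03 times in oxidative stress. The ratio was 0.929 without glutamine, 0.912 in hypoxia, 0.849 without glucose and 0.663 in ER stress. In these 6 libraries the TPM values of the 2 genes lay within 2-fold of each other. Capture of either RNA was not measured, so the ratio does not give their amounts in the cells. In osmotic stress the ratio was 0.0181, so Malat1 was 55.1 times as high as Neat1.

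**Figure D3:**
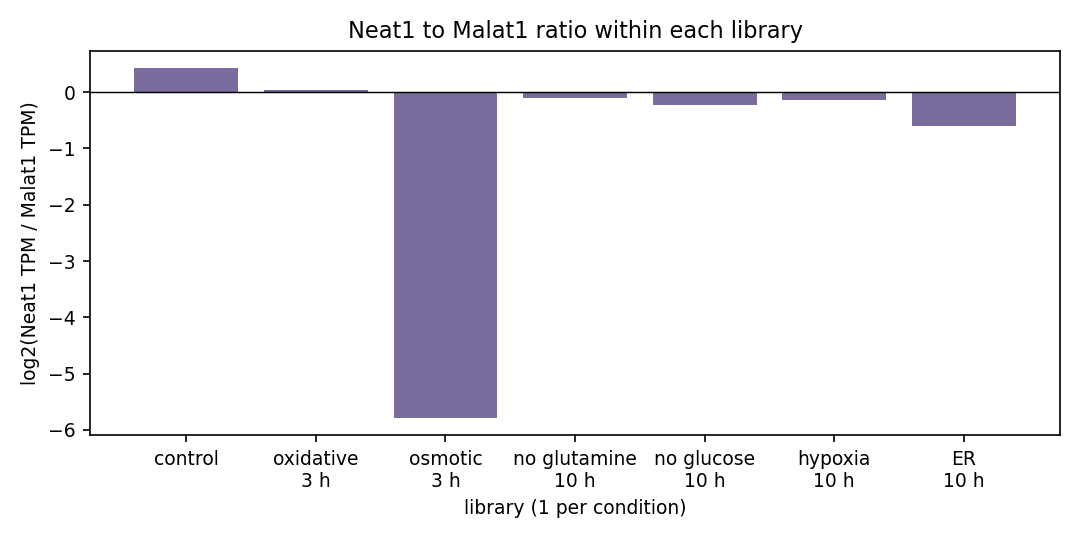
Log2 ratio of Neat1 TPM to Malat1 TPM within each library, 1 bar per library and no error bars. The bars lie between -0.59 and 0.43 in 6 libraries and at -5.78 in osmotic stress.

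Across libraries, log2(TPM + 1) of Malat1 and Neat1 had a Pearson r of 0.21 and a Spearman rho of 0.43 (n = 7). Without the osmotic library r was 0.90 and rho 0.71 (n = 6). Without the oxidative library, which was highest for both genes, r was -0.32 and rho 0.086 (n = 6). Without the 2 libraries farthest from the Malat1 median, oxidative stress and hypoxia, r was -0.29 and rho 0.10 (n = 5). The relation thus rests on single libraries, and it is given as a description of values that share a total.

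No other annotated long noncoding RNA that passed the filter, of 420, had as low a log2 change as Neat1 in osmotic stress. With 1 TPM added, an RNA with a low control level cannot fall that far, and this held for most of the 420. In osmotic stress 25 of the 420 (5.95%) rose, beside 3.08% of all genes. Another 66 (15.7%) fell, beside 8.76% of all genes, with a median change of -0.23 against -0.12. Among 28 long noncoding RNAs with at least 50 TPM in the control, Malat1 and Neat1 included, 2 fell in osmotic stress. The other was Meg3, an imprinted RNA, which went from 428 to 199 TPM (log2 change -1.10). By mean TPM, Malat1 ranked 19th and Neat1 23rd among long noncoding RNAs. The 5 highest were H19, Gas5, Cct6a (a chaperonin subunit gene that the annotation types as a processed transcript), 2410006H16Rik and Gm26809, and their log2 changes in osmotic stress lay between -0.61 and 0.28. In ER stress 57 of the 420 (13.6%) rose and 74 (17.6%) fell, beside 8.60% and 11.0% of all genes. In oxidative stress 30 (7.14%) rose and 47 (11.2%) fell, beside 3.94% and 4.85%. The shares are set side by side as a description, with no test of the difference. In glucose depletion 16 (3.81%) rose and 30 (7.14%) fell, beside 1.83% and 2.41%. In glutamine depletion 24 (5.71%) rose and 25 (5.95%) fell, beside 3.21% each way. In hypoxia 27 (6.43%) rose and 27 fell, beside 3.57% and 2.64%.

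**Figure D4:**
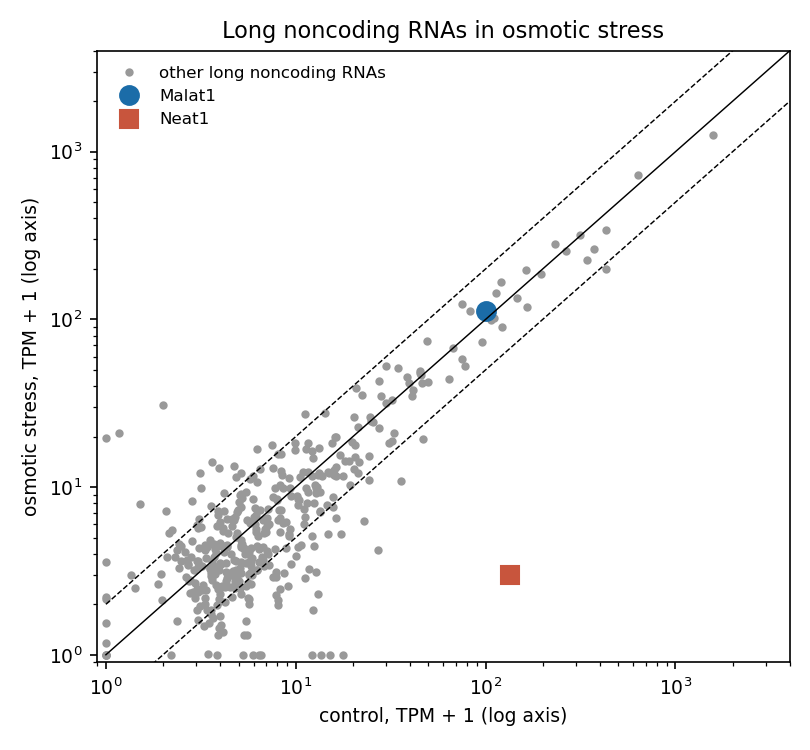
TPM + 1 in osmotic stress against TPM + 1 in the control for the 420 annotated long noncoding RNAs that passed the filter (gray) with Malat1 (circle) and Neat1 (square), both axes on a log scale. The solid line marks equal values and the dashed lines 2-fold. Malat1 lies by the solid line, at 99.1 and 111 TPM, and Neat1 far under the lower dashed line, at 133 and 2.01 TPM.

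Among 19 well-studied long noncoding RNAs that passed the filter, of 28 listed, 1 rose and 4 fell in osmotic stress, where 3.08% of all genes rose and 8.76% fell. Dancr had the lowest change, from 11.2 to 2.41 TPM (-1.83). The other 3 were Xist (-1.14), Ftx (-1.13) and Meg3. Hotairm1, which lies in the HoxA cluster, rose by 1.72, and it was past 2-fold in all 6 conditions against a control level of 2.95 TPM. In ER stress, where 8.60% of all genes rose and 11.0% fell, 5 rose, led by Zfas1 (2.46) and Hotairm1 (2.09), and 4 fell, led by H19 (-1.57) and Mirg (-1.29). Hotairm1 was the only rise in each of glucose depletion, glutamine depletion, oxidative stress and hypoxia. Mir22hg, from 28.7 to 13.8 TPM in hypoxia and just past 2-fold, was the only fall among these 4. In these conditions 1.83% to 3.94% of all genes rose and 2.41% to 4.85% fell. Counts of 0 or 1 of 19 are near these shares and are no result about the list.

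The proteins that build paraspeckles were followed through their mRNAs. The 8 listed proteins without which paraspeckles do not form (Nono, Sfpq, Rbm14 and Hnrnpk among them) all passed the filter, and in osmotic stress 0 of 8 were past 2-fold, with a median change of 0.05. With 8.76% of all genes falling and 3.08% rising there, a count of 0 of 8 is near the background and is no result about the list. Nono, which binds Neat1 as a dimer with Sfpq, had 268 TPM in the control and 248 in osmotic stress, and its log2 changes ranged from -0.27 to 0.06 over the 6 conditions. Sfpq had 245 TPM in the control and 335 in osmotic stress. In ER stress Sfpq was at 124 TPM (log2 change -0.98, just inside 2-fold). Rbm14, which holds the parts of the paraspeckle together, fell there from 27.3 to 12.9 TPM (-1.02). No other of the 8 passed 2-fold in any condition.

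Of 22 other paraspeckle proteins, 21 passed the filter. In osmotic stress 2 of 21 fell, beside 8.76% of all genes. Rbm12 fell from 25.7 to 8.08 TPM (-1.56) and Ss18l1 from 2.72 to 0.703 TPM (-1.13), and the list median was -0.14. In ER stress Taf15, an RNA-binding protein, rose by 1.39 and Rbmx fell by 1.04. Rbmx also fell by 1.01 in oxidative stress, and Cirbp, a cold-inducible RNA-binding protein, fell by 1.05 in hypoxia. Of the 20 nuclear speckle proteins, all of which passed the filter, the splicing factor Srsf5 fell in hypoxia (-1.05). It was the only speckle protein past 2-fold in any of the 6 conditions. By condition, 1.83% to 11.0% of all genes moved that far in a given direction. In osmotic stress 0 of 20 were past 2-fold, beside 8.76% of all genes falling and 3.08% rising, and the list median was -0.09. The counts were not tested against these shares.

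Genes tied to these 3′ ends or to the tRNA-like sequence after them were taken as a further list. It held subunits of RNase P and the related RNase MRP, the tRNA 3′ nuclease Elac2, the CCA-adding enzyme Trnt1 and the triple helix-binding protein Mettl16, and 13 of 14 passed the filter. In osmotic stress 2 of 13 fell, beside 8.76% of all genes. Rpp38, a protein subunit of RNase P, went from 14.9 to 0.548 TPM (log2 change -3.36), and Rpp25l, a paralog of the subunit Rpp25, went from 29.1 to 3.22 TPM (-2.83). The remaining 11 stayed inside 2-fold, and the median of the list was -0.57. In oxidative stress, where Malat1 rose, 4 of 13 fell beside 4.85% of all genes, namely Rpp40 (-1.64), Pop5 (-1.12), Rpp25l (-1.07) and Rpp14 (-1.04). In ER stress Trnt1 (1.11) and Rpp14 (1.02) rose, beside 8.60% of all genes. In hypoxia Rpp40 fell (-1.13), beside 2.64% of all genes. No member passed 2-fold in glucose or glutamine depletion. There 1.83% to 3.21% of all genes moved that far in a given direction. A count of 0 of 13 is near these shares and is no result about the list. These are mRNA levels, and the activity of the enzymes was not measured.

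The nuclear exosome degrades nuclear RNAs, and 15 of 16 genes for its subunits and adaptors passed the filter. In osmotic stress, where 8.76% of all genes fell, Exosc7 (-1.63) and Exosc4 (-1.36) fell and none rose, with a list median of -0.41. In ER stress, where 8.60% of all genes rose, the exosome nuclease Dis3 (1.30) and Exosc1 (1.03) rose, with a list median of 0.37. Exosc8 fell by 1.20 in glutamine depletion, where 3.21% of all genes fell. No member passed 2-fold in glucose depletion, oxidative stress or hypoxia. In these, 1.83% to 4.85% of all genes moved that far in a given direction. A count of 0 of 15 is near these shares and is no result about the list.

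RNAs that normally lack a poly(A) tail were listed because Malat1 and the long Neat1 transcript also lack one. Their TPM depends on their expression as well as on capture, which was not measured. The list held replication-dependent histone genes and small structural RNAs, of which 20 of 78 passed the filter, and some of these genes are near copies of each other whose estimates are uncertain. Their summed level lay between 322 and 499 TPM over the libraries. In osmotic stress 2 rose and 2 fell, beside 3.08% and 8.76% of all genes. Rn7sk, the RNA that holds the elongation factor P-TEFb inactive, rose by 1.20, and Hist1h4m was at 3.33 TPM but listed at 0 in the control. Hist1h4n fell by 1.10, and Hist2h2aa1 was listed at 0 against 5.63 TPM in the control. In oxidative stress 0 of 20 rose and 5 fell, beside 3.94% and 4.85%. Rises and falls numbered 5 and 1 in ER stress (8.60% and 11.0% of all genes) and 4 and 0 in hypoxia (3.57% and 2.64%). They numbered 1 and 3 both in glucose depletion (1.83% and 2.41%) and in glutamine depletion (3.21% each way). The list median was -0.17 in osmotic stress, beside -5.48 for Neat1, and -0.22 in oxidative stress, beside 1.01 for Malat1. A role of library chemistry in either value was not tested.

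Neat1 is a known target of the tumor suppressor p53, and all 10 listed p53 targets passed the filter. In osmotic stress 2 of 10 fell, beside 8.76% of all genes. Bbc3, a pro-apoptotic protein of the BCL2 family, fell by 1.62 and Sesn2 fell by 1.24, and the list median was -0.28. The list was split there, with 5 of 10 above the control. Mdm2 (0.96) and Eda2r (0.88) had the highest changes, both inside 2-fold. The summed level of the list was 1510 TPM in osmotic stress and 1300 in the control. None passed 2-fold in the other 5 conditions, where 1.83% to 11.0% of all genes moved that far in a given direction. A list of 10 is too small for that to be a result about its members. The list median in ER stress was 0.18, and a part of p53 in the Neat1 values was not tested.

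None of the genes measured around Malat1 and Neat1 had a change as low as that of Neat1 in osmotic stress. Most of them had too low a control level to fall that far with 1 TPM added. Of 32 protein-coding genes within 250 kb, 25 passed the filter, and in osmotic stress 0 rose and 2 fell, with a median of -0.30. That count is near the all-gene share of 8.76% falling. The 2 were Cdc42ep2, an effector of the GTPase CDC42 (from 25.0 to 6.09 TPM, -1.87), and Cdca5, which encodes the cohesin regulator sororin (from 12.1 to 5.46 TPM, -1.02). Frmd8, chosen for its position, is the listed gene nearest to the start of Neat1, and it had 25.9 TPM in the control and 25.4 in osmotic stress. In ER stress 2 neighbors rose (8.60% of all genes rose and 11.0% fell), Syvn1, a ubiquitin ligase of ER-associated degradation (2.69), and Dpf2 (1.21), while Cdc42ep2 (-2.03), Rnaseh2c (-1.31) and Mrpl49 (-1.19) fell. In oxidative stress Slc25a45 rose (1.10) and Cdc42ep2 fell (-1.43), beside 3.94% and 4.85% of all genes. Cdc42ep2 (-1.16) and Pola2 (-1.06) fell in glutamine depletion (3.21% of all genes), and Tm7sf2 (-1.05) in glucose depletion (2.41%). None passed 2-fold in hypoxia, where 3.57% of all genes rose and 2.64% fell. Counts this small were not tested against these shares.

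Small RNA genes annotated inside or beside the pair added little. Of 5 such rows, 3 were at 0 TPM in all libraries, Gm27702 among them. Gm28006, inside the 5′ part of Neat1, had 12.8 TPM in oxidative stress, 3.70 in the control and 0 in the other 5 libraries. Gm27505 was at 6.17 TPM in ER stress alone. They share sequence with Neat1, so reads there may have been divided between rows.

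The genes most like each RNA in pattern were ranked by Pearson r of log2(TPM + 1) over the 7 libraries among 8818 genes whose mean was 10 TPM or more. For Malat1 the first 5 were Spred3 (0.987), Csnk1e (0.983), Ewsr1 (0.959), Bcr (0.943) and Stk38l (0.930). Without the osmotic library their r ranged from 0.931 to 0.994. Ewsr1 is also on the list of other paraspeckle proteins, and it went from 262 TPM in the control to 473 in oxidative stress (log2 change 0.85). For Neat1 the first 5 were Kat5 (0.988), Zfp672 (0.978), Mir3060 (0.963), Fam222b (0.962) and Znrd1 (0.961). These values rest largely on the osmotic library, without which they were 0.921, 0.805, 0.593, 0.711 and 0.603. Kat5, which encodes an acetyltransferase, is also one of the neighbors above. It went from 25.8 TPM in the control to 13.8 in osmotic stress, a log2 change of -0.85 and much smaller than that of Neat1. With so many genes and 7 points, high values of r arise readily, and they are given as a description.

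The promoter of Malat1 was searched for letters tied to stress responses. Its levels lay within 2.60-fold over the 7 libraries, and a part of the promoter in these values was not tested. RefSeq (GRCm38.p6) held the window for 1 of the 2 genes, Malat1, from 250 bases before to 50 bases after the start site, at chr19:5802623-5802922 on the minus strand. Capitals mark matches to TGACG (the core of the cAMP response element) and ACGTG (the core of the hypoxia response element) on either strand.
Malat1, promoter: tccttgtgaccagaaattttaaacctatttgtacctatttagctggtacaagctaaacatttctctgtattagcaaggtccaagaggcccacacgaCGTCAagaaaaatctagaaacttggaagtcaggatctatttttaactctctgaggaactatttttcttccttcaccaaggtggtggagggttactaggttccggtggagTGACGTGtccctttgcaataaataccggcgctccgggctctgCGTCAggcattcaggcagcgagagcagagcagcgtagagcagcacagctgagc
TGACG matched 3 times and is held by 20.8% of 32851 promoters of this length. ACGTG matched once, overlapping a TGACG match, and is held by 19.6%. The letters GAANNTTC (heat shock element), TGACNNNGC (antioxidant response element), TGANTCA (AP-1 site), TGATGNAA (ATF4 composite element), CCAAT and TATAAA were not in this window, and 7.86%, 12.4%, 7.81%, 3.97%, 37.4% and 13.6% of promoters hold them. A match describes letters only, and binding was not measured.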

How the data were processed

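MEF RNA was made into stranded, poly(A)-selected libraries and sequenced in pairs. The authors estimated TPM with kallisto 0.43.1 at default settings against the cDNA set of Ensembl release 90 (GRCm38) and deposited the TPM of each gene, summed over its transcripts. The table also holds noncoding genes, so which transcripts of Malat1 and Neat1 the target held is not certain. Values are shares of a library, so a gene can move because others do. Depth is unknown and no interval for counting error can be given. Log2(TPM + 1) minus that of the control was computed for genes whose mean was 2 TPM or more, and changes past 2-fold were counted, after the study's own rule. No test was run, since each condition had 1 library. Gene types and coordinates came from GENCODE M21 (48681 of 49382 identifiers matched), and promoter sequences from RefSeq. The members, lists, motifs and alternatives were chosen with earlier results of these data known. Named genes are Malat1 and Neat1, list members past 2-fold (at most 2 each way where there are more), Nono, Sfpq, the 5 genes most like each RNA and the 5 highest long noncoding RNAs. The lists were the paraspeckle, speckle, 3′ end, exosome, long noncoding, untailed and p53 genes, chromosomal neighbors and markers of treatments and cell types. Frmd8, Gm27505 and Gm28006, and list members named beyond those limits, were picked after values were seen. Alternatives changed the pseudocount, filter, threshold, scaling, reference and libraries. Some genes counted in the lists are not reported here by name. Only the 2-fold call was tested on simulated data, with low levels raised and with assumed noise, since no replicate gave a measure of it. Software was Python 3.11.15 with pandas 2.3.3, numpy 2.4.6 and, for figures, matplotlib 3.10.9.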

Additional observations from a re-analysis of the deposited data

How the results depend on the processing

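Leaving out a replicate was not possible with 1 library per condition. No paired analysis was possible because each condition had a single library. The depth of the libraries is unknown, so the precision of 2.01 TPM for Neat1 in osmotic stress cannot be stated. Malat1 and Neat1 have 12 changes, and none of the 3 past 2-fold turned direction under the 6 alternatives of pseudocount, scaling and reference. Values that moved by less than 0.1 on the log2 scale are not listed.

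With a pseudocount of 0.1 TPM the osmotic change of Neat1 was -5.98. With 5 TPM it was -4.30 and its log2 ratio to Malat1 in osmotic stress was -4.05, while Malat1 in oxidative stress (0.98) came inside 2-fold. Centering on the median of all genes gave 0.28 (osmotic) and 1.17 (oxidative) for Malat1 and -5.36 (osmotic) and 0.79 (oxidative) for Neat1. Removing mitochondrially encoded genes or rescaling to protein-coding genes moved none of the 12 by 0.1. Against the median of the 7 libraries in place of the control, Neat1 was at -4.57 in osmotic stress, 1.54 in oxidative stress, -0.32 in ER stress, -0.079 without glucose, 0.60 without glutamine and 0 in hypoxia, so the fall in ER stress depends on the control library and the oxidative value then passes 2-fold.

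Over the 6 conditions, 7370 changes of genes were past 2-fold. The total was 17162 at 1.5-fold, 3349 at 3-fold, 3406 with a mean of at least 10 TPM, 12119 with no filter and 4044 with a pseudocount of 5 TPM. Totals for the lists at 2-fold, 1.5-fold and 2-fold with a pseudocount of 5 TPM were, in that order, 1, 3 and 0 for the required paraspeckle proteins, 6, 14 and 2 for other paraspeckle proteins, 9, 26 and 3 for 3′ end genes, 19, 41 and 12 for well-studied long noncoding RNAs, 27, 47 and 8 for untailed RNAs, 12, 32 and 6 for neighbors and 448, 944 and 166 for annotated long noncoding RNAs. At 1.5-fold the totals were 6 for speckle proteins (1 at 2-fold), 18 for exosome genes (5) and 11 for p53 targets (2). Centering gave 0 for speckle proteins and 4 for p53 targets.

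Of the first 5 genes like Malat1, 1 remained by Spearman rho, 2 with a mean of at least 50 TPM and 3 without the osmotic library. For Neat1, 0 of 5 remained under each of these settings. The correlation of Malat1 with Neat1 (0.21) was 0.90 without the osmotic library and 0.43 by Spearman rho, and it turned to -0.32 without the oxidative library. The settings without a library and the Spearman value of this correlation were chosen after seeing the data.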
